A study of Homo sapiens with 6 samples.

Results

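The regions described here are active transcription elements that overlapped an annotated exon and lay away from every annotated transcript start. They were taken from 3 lists of dREG peaks of K562 cells on chromosomes 1 to 22 and X. A peak was counted when it shared at least 1 bp with an exon of GENCODE release 29 on build GRCh38 and lay more than 500 bp from the nearest transcript start of any gene. The rule used positions only, and no score or overlap between lists. It kept 762 of 24707 peaks of the PRO-seq 1M list, 1577 of 38177 peaks of the qPRO-seq 1M list and 417 of 15562 peaks of the qPRO-seq 250k list. Joining overlapping peaks of the 3 lists gave 1766 regions with at least 1 such element, of 34308 regions in all.

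The assay, precision run-on sequencing (PRO-seq), reads where RNA polymerase stands in the act of transcription: permeabilized cells add a biotin-labelled nucleotide to their nascent RNA, which is then purified and sequenced from its 3′ end. The study set a quick version of the assay (qPRO-seq) beside the published protocol, and asked how far the cell number could be lowered. All 6 libraries came from untreated K562, an established human erythroleukaemia line that the labels call lymphoblastoid. The PRO-seq 1M group used the published protocol on 1M permeabilized cells with 11 cycles of PCR, the qPRO-seq 1M group the quick protocol on 1M cells with 11 cycles, and the qPRO-seq 250k group the quick protocol on 250k cells with 14 cycles. Each group had 2 biological replicates at least 3 passages apart, with random identifiers of 6 nt in the adapters and reads of 37 nt. Each group had 1 deposited peak list standing for both replicates, so that input and cycle number cannot be told apart, no spread between replicates could be had, and no test between groups was possible. Depth is not known for any list. Intervals in parentheses are 95% intervals (Wilson for a share, Newcombe for a difference) that cover counting error only. Of 10 erythroid marker genes, 8, 9 and 8 had a peak within 500 bp of a start in the lists in the same order; of 10 lymphoid markers, 3, 3 and 2 did.

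Enhancers and promoters are both transcribed in opposite directions from a nucleosome-free core, and dREG is a classifier that recognises this paired pattern of polymerase. Most enhancers lie in introns or between genes, yet some exons also hold regulatory sequence, so that the same bases serve the mature RNA or protein and bind transcription factors. In an exon of an active gene, polymerase that belongs to the gene itself passes over the same bases on the coding strand, and the element is read against it. An exon far from every listed start can also hold the start of a transcript that the annotation does not list.

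The stretches below are shown because they put a short motif of a transcription factor family within 150 bp of the centre of an element that a peak of each list overlapped. Each is 30 bases of exon read 5′ to 3′ on the strand of the gene, from the GENCODE transcript sequences on GRCh38, and capitals mark the motif or its reverse complement. The motifs are AGATAA for the GATA factors, GGGCGG (the GC box) and CCACCC (the CACCC box) for factors of the Sp and Krüppel-like families, and CCAAT for NF-Y. GATA1 and KLF1 of these families are the erythroid regulators active in K562. Only named elements with a motif within 150 bp of the peak centre and outside untranslated exon parts are printed, a limit chosen after the values were seen.
KLF1 (CACCC box), exon 2 of 3, coding, chr19:12885679-12885708, minus strand: cgccggctcctcGGGTGGctacttcccgcg
MYB (GATA), exon 6 of 16, coding, chr6:135192375-135192404, plus strand: cgaacaggaaggTTATCTgcaggagtcttc
MAGI2 (GC box), exon 22 of 22, coding, chr7:78019926-78019955, minus strand: ctcccgctgccgCCGCCCcaggtctgccgg
FCRLB (CACCC box), exon 7 of 8, coding, chr1:161726931-161726960, plus strand: aggcggctaccgCCACCCgcagtgtccgga
TARBP1 (GC box), exon 1 of 30, coding, chr1:234478218-234478247, minus strand: acctgctgcagaGGGCGGtggaggtgtcgg
TMEM238 (GC box), exon 1 of 2, coding, chr19:55383815-55383844, minus strand: gagcgcgccgagCCGCCCgcgcgcccccgc
RCOR3 (CCAAT box), exon 3 of 3, noncoding transcript, chr1:211260954-211260983, plus strand: gcctgtgcagggATTGGgcgagagttccgc
LINC01588 (CACCC box), exon 1 of 5, noncoding, chr14:50003426-50003455, minus strand: tatctccgcggcCCACCCggcggcgcctcc
AP001528.1 (GATA), exon 3 of 3, noncoding, chr11:87000518-87000547, plus strand: gtttaaaattccTTATCTgacattgctagc
TRA2B (GATA), exon 1 of 10, noncoding transcript, chr3:185935550-185935579, minus strand: attctcccttatTTATCTgtctctaatcca
In 7 of these 10 stretches the capitals are a GC box or CACCC box (6) or a CCAAT box (1), and in 3 they are a GATA motif. A match of letters does not show that a factor was bound, and the share of all elements with each motif is given further on.

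Elements over exons were a small part of each list. Their share was 3.08% (2.88 to 3.31) in the PRO-seq 1M list, 4.13% (3.94 to 4.34) in that of qPRO-seq 1M and 2.68% (2.44 to 2.95) in the qPRO-seq 250k list. Among the peaks more than 500 bp from a start they made up 9.66%, 9.01% and 10.1%. For scale, windows of 440 bp were laid end to end over the same chromosomes, and 371817 of the 6548253 windows beyond 500 bp of a start (5.68%) touched an exon. Chromosome 19, the most gene-dense chromosome, held 105 of the PRO-seq 1M elements (13.8%), 157 of the qPRO-seq 1M elements (9.96%) and 37 of the qPRO-seq 250k elements (8.87%), against 4.49% of the exonic windows. It was not alone in this: chromosome 17 held 7.48%, 6.40% and 8.63% against 4.66%, and chromosome 1 held 13.8%, 13.4% and 15.8% against 9.95%. Other chromosomes held less than their window share, among them chromosome 2 (5.12%, 5.64% and 4.80% against 7.70%).

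By place in the transcript, first exons and single-exon transcripts were over-represented among the elements and internal exons were under-represented, relative to the exonic windows. Each element took the class of 1 exon, with an exon of a protein-coding transcript placed before others and then the largest overlap. First exons held 72 of the PRO-seq 1M elements (9.45%, 7.57 to 11.7), 123 of those of qPRO-seq 1M (7.80%, 6.58 to 9.23) and 28 of those of qPRO-seq 250k (6.71%, 4.69 to 9.53), against 1.69% of windows. Internal exons held 247, 531 and 120 (32.4%, 33.7% and 28.8%) against 49.9% of windows. Last exons, the most frequent class, held 348, 710 and 213 (45.7%, 45.0% and 51.1%) against 43.3% of windows. Exons of single-exon transcripts held 95, 213 and 56 (12.5%, 13.5% and 13.4%) against 5.09%.

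Elements lie nearer to starts than windows do, and first exons are near starts by nature, so the windows were also weighted to the elements' distances from a start in 5 distance classes. The weighted window shares were 3.8%, 3.77% and 3.70% for first exons, 47.2%, 47.4% and 47.3% for internal exons, 39.2%, 39.2% and 39.3% for last exons and 9.76%, 9.67% and 9.66% for single exons. The higher share of first exons and the lower share of internal exons were thus also seen at like distance. A peak within 500 bp of a start lay 20 bp from 23.6%, 21.1% and 7.14% of first-exon elements. For single exons this was 23.2%, 26.8% and 10.7%, for internal exons 6.07%, 5.08% and 3.33% and for last exons 5.75%, 7.89% and 2.82%. The part of such neighbours in the shares by place was not tested. The comparison for last exons was not stable: when the peak centre itself had to lie in the exon, last exons held 53.7%, 54.2% and 58.3% of elements against 62.2% of windows, below and no longer above. Under that rule internal exons still held fewer elements (18.2%, 18.0% and 17.3%) than windows (26.9%).

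**Figure D1:**
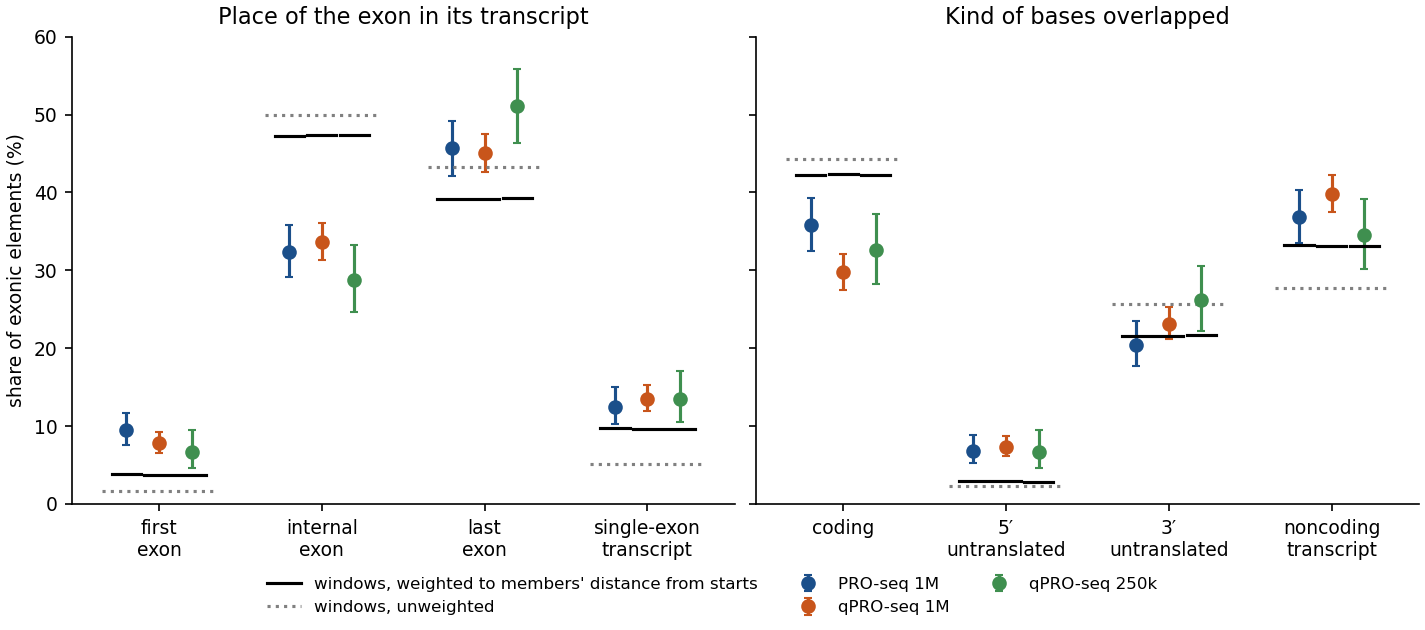
Share of the exonic elements (%) by place of the exon in its transcript (left) and by the kind of bases overlapped (right), for each of the 3 lists, with 95% Wilson intervals for counting error. Dotted grey lines give the exonic windows and black bars the windows weighted to the elements' distances; internal exons sit between 28.8% and 33.7% against 49.9% of windows, and first exons sit between 6.71% and 9.45% against 1.69%.

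By the kind of bases overlapped, coding sequence held 273, 469 and 136 elements (35.8%, 29.7% and 32.6%, the lists in the order of the opening) against 44.3% of windows, or 42.2% to 42.3% after weighting by distance. Exons of noncoding transcripts held 281, 628 and 144 (36.9%, 39.8% and 34.5%) against 27.8%, or 33.1% to 33.3% after weighting, a margin that in qPRO-seq 250k lay inside the interval of 30.1 to 39.2. The 5′ untranslated parts held 52, 115 and 28 (6.82%, 7.29% and 6.71%) against 2.26%, or 2.88% to 2.91% after weighting. The 3′ untranslated parts held 156, 365 and 109 (20.5%, 23.1% and 26.1%) against 25.7%, or 21.6% to 21.7% after weighting. In all 3 lists and with either scale, coding bases held fewer elements than windows did and 5′ untranslated bases held more. With the peak centre required in the exon, 5′ untranslated bases still held more (4.92%, 5.77% and 4.59% against 1.32%). The comparison for coding bases then turned round in PRO-seq 1M and in the 250k list: they held 29.5%, 21.8% and 29% of elements against 26.5% of windows.

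By the kind of gene, protein-coding genes held 544, 1086 and 294 elements (71.4%, 68.9% and 70.5%) against 78.6% of windows. Long noncoding RNA genes held 183, 409 and 106 (24.0%, 25.9% and 25.4%) against 14.6%, or 14.9% after weighting. Pseudogenes held 26, 65 and 13 (3.41%, 4.12% and 3.12%) against 6.19% of windows, and reads from a pseudogene and its parent gene cannot always be told apart. No element was assigned to a small noncoding RNA gene, but only 3 of 371817 exonic windows (0.000807%) were either. The rule thus leaves such genes almost no place. The count of 0 of 1577, which allows a share of up to 0.243% in the longest list, says nothing about them. Genes of other kinds held 9, 17 and 4 (1.18%, 1.08% and 0.959%) against 0.635%. Long noncoding exons thus held more elements than windows did in each list.

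Within the exon classes, elements sat in particular places. Of the internal-exon elements, 109 of 247 in PRO-seq 1M (44.1%, 38.1 to 50.4), 236 of 531 in qPRO-seq 1M (44.4%, 40.3 to 48.7) and 51 of 120 in qPRO-seq 250k (42.5%, 34.0 to 51.4) were in exon 2 of their transcript, against 15.0% of internal windows. Weighting the windows by distance raised their share to 18.0%, 17.9% and 17.9%. Of the last-exon elements, 79.6%, 78.7% and 77.9% lay within 500 bp of an annotated transcript end, against 70.1% of windows and 75% to 75.5% after weighting. The chosen last exons were shorter (medians of 1122.5, 1148.5 and 1068 bp) than those of windows (1980 bp), and the chosen internal exons were longer (158, 143 and 161.5 bp against 133 bp).

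Most elements were not small grazes of an exon, and most also reached beyond it. The median overlap with exons was 256.5 bp in PRO-seq 1M, 240 bp in qPRO-seq 1M and 270 bp in qPRO-seq 250k, at median peak widths of 420, 430 and 410 bp. Elements wholly inside exons made up 39.0%, 36.8% and 40.0%, and the peak centre lay in an exon for 64.0%, 61.5% and 67.9%. Fewer than 50 exonic bp were covered by 62, 134 and 30 elements. A whole exon was covered by 18.4%, 19.6% and 15.6% of elements. Elements abutted other peaks less often than peaks at large: 28.3%, 32.4% and 13.9% had another peak of their list 20 bp away, the smallest gap in the lists, against 40.6%, 41.9% and 26.4% of all peaks. Among distal intronic peaks it was 19.4%, 24.8% and 13.2%. For 9.71%, 10.5% and 4.32% that neighbour was a peak within 500 bp of a start.

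The elements crowded towards the 500 bp limit. The median distance to the nearest start was 1527.5 bp in PRO-seq 1M, 1496 bp in qPRO-seq 1M and 1515 bp in qPRO-seq 250k. Beyond the limit and up to 1000 bp from a start lay 279 of 762 elements (36.6%), 575 of 1577 (36.5%) and 140 of 417 (33.6%). The same range held 11.7% of exonic windows, 22.4%, 20.4% and 22% of the distal intronic peaks and 9.60%, 8.99% and 10.0% of the distal intergenic peaks. Elements in the first 50 bp outside the limit had median score percentiles of 34.7 (n = 53), 35.6 (n = 103) and 27.3 (n = 21), where the percentile ranks a peak's dREG score within its own list. Exonic peaks in the last 50 bp inside the limit had medians of 33.6 (n = 52), 44.8 (n = 97) and 23.6 (n = 26).

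**Figure D2:**
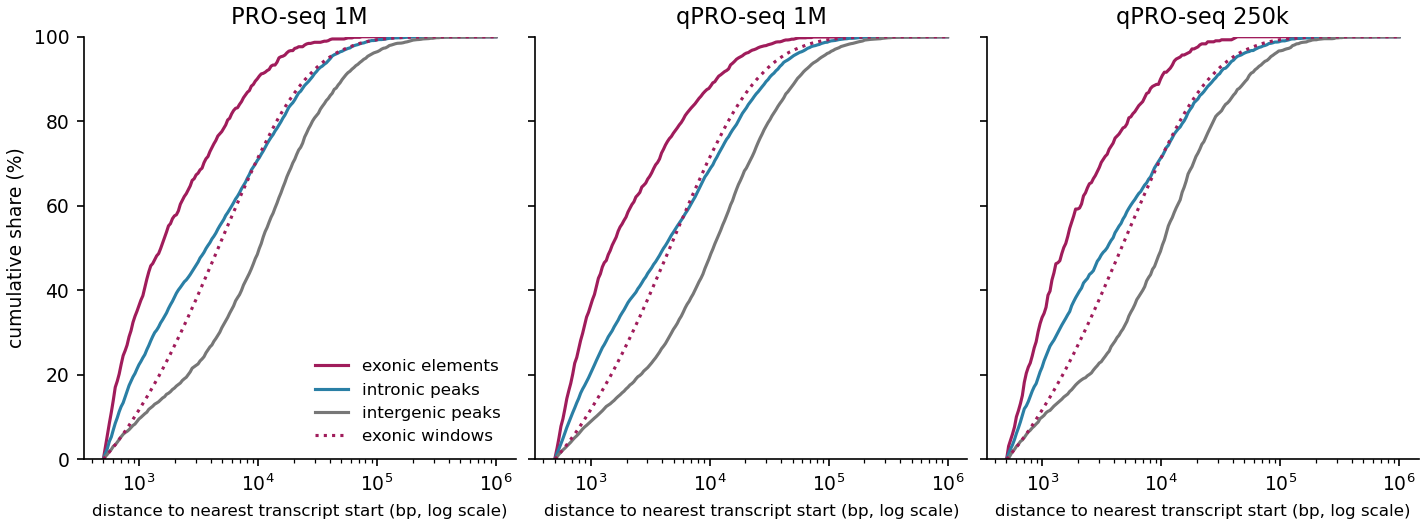
Cumulative share (%) of exonic elements, distal intronic peaks, distal intergenic peaks and exonic windows by distance to the nearest transcript start (bp, log scale), 1 panel per list. The curve of the exonic elements rises first in each panel, with 33.6% to 36.6% of them within 1000 bp, against 11.7% of the exonic windows.

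The annotation itself sets what counts as away from a start. Against the gene starts of RefSeq (assembly GRCh38.p14), a second annotation with fewer starts per gene, 50 PRO-seq 1M elements (6.56%, 5.01 to 8.55), 62 qPRO-seq 1M elements (3.93%, 3.08 to 5.01) and 24 qPRO-seq 250k elements (5.76%, 3.90 to 8.42) lay within 500 bp of a start, and 16, 24 and 9 of them held it. EGLN1, which encodes an oxygen-sensing prolyl hydroxylase that marks hypoxia-inducible factors for decay, is an example: its exon 1 element at chr1:231422161-231422580 in qPRO-seq 250k lay 1818 bp from the nearest GENCODE start and held the RefSeq start at 231422287. PELO, a ribosome rescue factor, had an exon 2 element (chr5:52799811-52800490 in qPRO-seq 250k) holding the RefSeq start of PELO-AS1. The last-exon element of DNAH2, an axonemal dynein gene, held the RefSeq start of its neighbour KDM6B, a histone demethylase, in both PRO-seq 1M and the 250k list. Its score percentile was 29.9 in PRO-seq 1M and 0.103 in qPRO-seq 250k, at the bottom of that list. DNAH2 and KDM6B were chosen after their values were seen.

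The dREG scores of exonic elements ranked low in their lists. The median score percentile was 32.3 in PRO-seq 1M, 36.9 in qPRO-seq 1M and 27.3 in qPRO-seq 250k. Peaks near starts had medians of 58.9, 59.9 and 55.7, distal intronic peaks 31.3, 38.5 and 31.6 and distal intergenic peaks 37.0, 41.4 and 39.2. By their medians, exonic elements ranked close to intronic peaks in the PRO-seq 1M list and below both other distal kinds in the qPRO-seq lists. Among the exonic elements, those over 3′ untranslated bases had medians of 24.1, 31.7 and 23.9, the lowest of the 4 kinds of bases in both 1M lists. Those over 5′ untranslated bases had 29.5, 35.9 and 22, the lowest in qPRO-seq 250k. The medians were 35.7, 40.4 and 26.7 over coding bases and 34.6, 37.8 and 31.7 over noncoding transcripts. The ranges were wide, from 0.0121 to 99.7, from 0.0131 to 99.7 and from 0.0450 to 99.0. The peak p-value was listed as 0 for 17.5%, 19.9% and 16.3% of elements.

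The highest-ranking elements included exons of noncoding RNAs and of genes without a start peak of their own. Of all elements, 303 of 762, 590 of 1577 and 206 of 417 lay in a gene without a start peak in the same list. Hosts with a start peak were still more frequent among elements than among exonic windows. In protein-coding genes they made up 64.0%, 67.3% and 54.1%, against 58.4%, 60.2% and 49.0% of windows, the last inside the counting interval. In long noncoding genes they made up 54.6%, 55.5% and 46.2%, against 21.2%, 24.5% and 16.8%. The region with the highest mean rank among those with an exonic element in all 3 lists was in LINC02037, a long intergenic noncoding RNA gene on chromosome 3. Its element overlapped exon 3 of 4 and ran from 194255311 to 194256080 in PRO-seq 1M, from 194255211 to 194256080 in qPRO-seq 1M and from 194255311 to 194255990 in qPRO-seq 250k. The score percentiles were 98.4, 99.6 and 99.0, and no peak of any of the 3 lists marked a start of that gene. The exon contributed 46, 126 and 46 bp, so that most of the element lay in the flanking intron.

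MAGI2, a scaffold protein of cell junctions and synapses, carried an element over the coding part of its last exon, exon 22 of 22. It lay at chr7:78019551-78020170 in PRO-seq 1M, chr7:78019711-78020190 in qPRO-seq 1M and chr7:78019711-78020180 in qPRO-seq 250k, 14846, 14826 and 14836 bp from the nearest start. The score percentiles were 98.6, 96.9 and 96.0. The GC box printed for MAGI2 lies at the centre of the PRO-seq 1M peak (0 bp away), and no list had a peak at a start of the gene. FCRLB, an Fc receptor-like gene of the B lineage, had an element over coding exons 7 and 8 of 8 at chr1:161726791-161727500 in PRO-seq 1M, with score percentiles of 99.7, 97.4 and 94.3 in the 3 lists. Exon 8 was the chosen exon in the 1M lists and exon 7 in qPRO-seq 250k.

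EXTL1, a glycosyltransferase of the exostosin family that builds heparan sulfate, had an element wholly inside the 3′ untranslated part of exon 11 of 11. Its score percentiles were 98.7, 98.8 and 93.3 at widths of 750, 900 and 720 bp, all exonic. The other regions with an element in all 3 lists and a mean percentile among the 10 highest were in LINC02029 (98.8, 98.6 and 92.7), AP001528.1 (91.0, 98.1 and 89.3), AC004835.1 (79.9, 98.8 and 94.0), RCOR3 (95.2, 96.7 and 79.5), AL021918.3 (93.1, 99.4 and 78.4) and RREB1 (99.5, 93.5 and 77.6). RCOR3 is a corepressor of the CoREST family and RREB1 a zinc finger factor downstream of Ras. LINC02029, AP001528.1, AC004835.1 and AL021918.3 are long noncoding RNA genes, so 5 of the 10 regions were in such genes. Of all exonic elements, 24.0%, 25.9% and 25.4% were in such genes, and 10 regions are too few for a comparison. These regions were ranked by their scores, and their high values follow from that choice.

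Among first exons, the highest-ranking elements lay in LINC01588, FBXW4 (an F-box gene) and TMEM238 (a transmembrane protein gene) in PRO-seq 1M, with percentiles of 94.6, 88.3 and 84.1. In qPRO-seq 1M they lay in TRA2B (96.6), a splicing regulator, FNTA (95.8), a farnesyltransferase subunit, and AC003043.2 (95.1). In qPRO-seq 250k they lay in EGLN1 (66.4), FBXW4 (57) and TARBP1 (54.4), an RNA methyltransferase gene, all below the first-exon elements named for the 1M lists. The LINC01588 element lay 2729 bp from the nearest start although in exon 1, since that exon is long, and covered 540 bp of it. The TMEM238 element lay 202 bp from the RefSeq start of its own gene.

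Among internal exons, PSMD10, a chaperone of the proteasome, led the qPRO-seq 1M list with an element over 371 bp of exon 2 of 5 (chrX:108088371-108089160, percentile 99.7). TSSC2, a transcribed pseudogene whose reads may be shared with copies, was among the 3 highest in PRO-seq 1M (97.5). Among last exons, SLC6A6, the taurine transporter, led qPRO-seq 1M (99.2), followed by AC099552.3 (99.1) and AL357078.1 (98.9). The AC099552.3 element held a RefSeq start, that of LOC124901783. AL357078.1 also led qPRO-seq 250k (98.0), where LGI4, a secreted protein of myelinating glia, was among the 3 highest (95.5). In PRO-seq 1M an exonic peak of AL357078.1 lay 497 bp from a start and so was left out.

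The erythroid genes gave a small set of their own. Of 26 genes on that list, 2 held an element in PRO-seq 1M, 3 in qPRO-seq 1M and 2 in qPRO-seq 250k. Those shares of 7.69%, 11.5% and 7.69% compare with 2.37%, 4.60% and 1.34% of all 20257 protein-coding genes, and with so few genes the shares carry little precision. KLF1, the Krüppel-like factor that switches on adult globin in red cell precursors, carried elements over coding exon 2 of 3, the exon that holds most of its coding sequence. In PRO-seq 1M the exon was split among 3 elements at chr19:12885831-12886540, chr19:12885471-12885810 and chr19:12884981-12885450, 20 bp apart from each other, with percentiles of 37.4, 36.3 and 43.8. In qPRO-seq 1M there was 1 element (chr19:12885031-12885840, percentile 48.5), and in qPRO-seq 250k there was also 1 (chr19:12885031-12885740, percentile 26.8). The start of KLF1 had its own peak in each list, at percentiles of 43.3, 63.1 and 29.4, so that the start ranked above the exon in both qPRO-seq lists and inside the range of the exon's elements in PRO-seq 1M. The CACCC box printed for KLF1 lies in the middle PRO-seq 1M element, 43 bp from its centre. A further PRO-seq 1M element downstream of the gene, in the last exon of AC020934.2, had a percentile of 19.8 and no peak of another list over it.

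MYB, the transcription factor that keeps progenitors dividing and is silenced as red cells mature, had an element over coding exon 6 of 16, which begins 11009 bp from the transcript start. It lay at chr6:135191751-135192360 in PRO-seq 1M, chr6:135192251-135192690 in qPRO-seq 1M and chr6:135192161-135192620 in qPRO-seq 250k. The score percentiles were 16.8, 97.1 and 15.2, and the exonic overlap 37, 235 and 235 bp. The PRO-seq 1M element thus lay mostly in the intron before the exon, and it ended before the GATA motif printed for MYB, which both qPRO-seq elements covered. It ran from 10436 to 11046 bp from the transcript start. There qPRO-seq 1M had a separate intronic peak, from 10386 to 10916 bp (percentile 61.6), beside its exonic element from 10936 to 11376 bp. The percentiles of 16.8 and 97.1 thus belong to mostly different stretches.

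**Figure D3:**
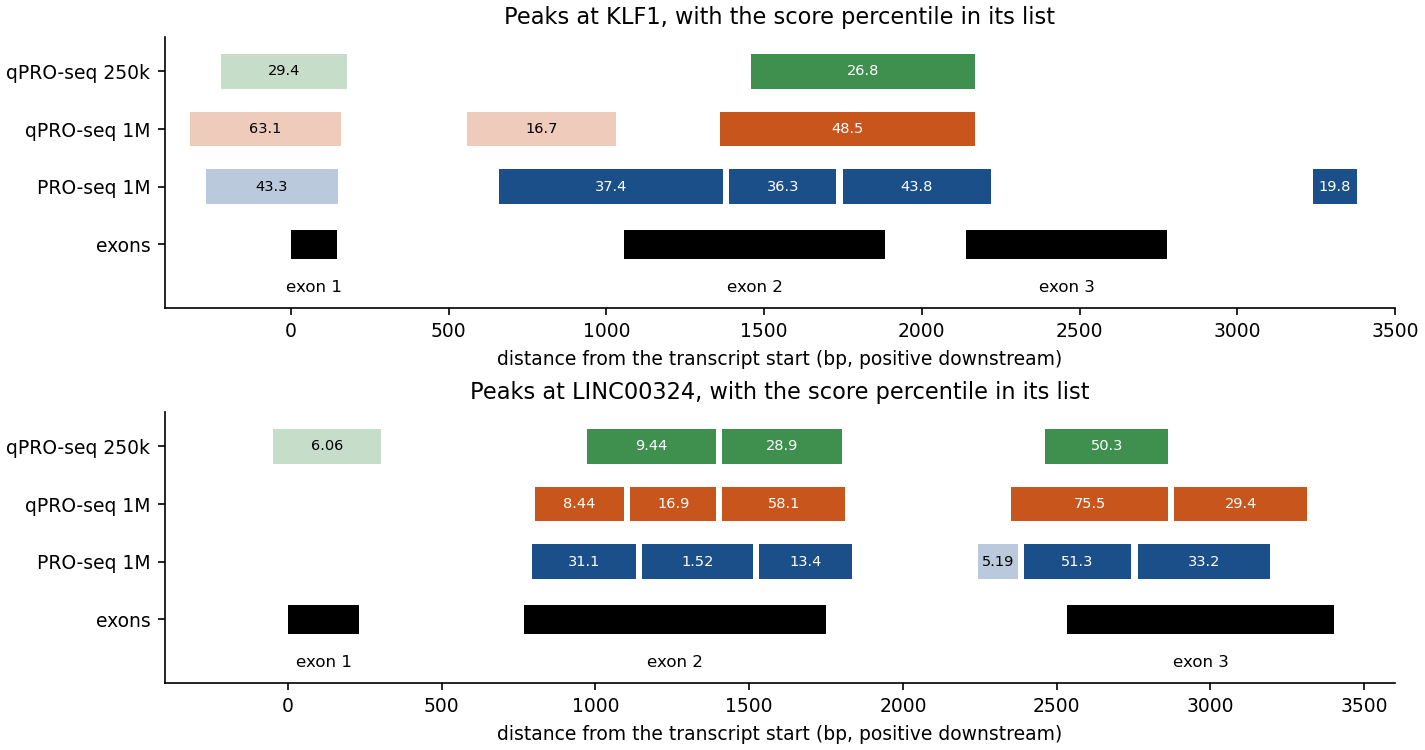
Peaks at KLF1 (top) and LINC00324 (bottom) in the 3 lists, by distance from the transcript start (bp, positive downstream), with exons in black, exonic elements in full colour, other peaks in pale colour and the score percentile in each box. KLF1 exon 2 carries 3 abutting elements in PRO-seq 1M and 1 in each qPRO-seq list; LINC00324 carries 5, 5 and 3 elements.

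Most hosts held a single element. The elements fell in 674 genes in PRO-seq 1M, 1356 in qPRO-seq 1M and 381 in qPRO-seq 250k, and 600, 1181 and 350 of these had only 1. Hosts with 4 or more elements numbered 2, 10 and 0. LINC00324 had 5 elements in PRO-seq 1M (percentiles from 1.52 to 51.3), 5 in qPRO-seq 1M (8.44 to 75.5) and 3 in qPRO-seq 250k (9.44, 28.9 and 50.3), in exons 2 and 3 of 3. Its exon 2 was cut into 3, 3 and 2 elements with gaps of 20 bp. The cut in the 250k list lay at the same place as a cut in qPRO-seq 1M, and the PRO-seq 1M cuts lay elsewhere. RYR1, the calcium release channel of skeletal muscle, had 4 elements in PRO-seq 1M and 5 in qPRO-seq 1M in exons 12 to 86 of 105, and the pair over exons 85 and 86 ranked from 9.48 to 84.1. Only the exon 86 elements were overlapped in all 3 lists.

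FLJ37453, an antisense noncoding gene, had 5 elements in its last exon in qPRO-seq 1M, all overlapped by both other lists, with percentiles of 63.0, 22.6, 68.8, 79.2 and 29.2. LINC01011 and its neighbour NQO2, a quinone reductase gene, had 4 elements each in qPRO-seq 1M, and the highest was in exon 2 of NQO2 (chr6:3001551-3002410, percentile 94.5). SLC11A1, a divalent metal transporter of phagocytes, had 4 abutting elements in the 3′ untranslated part of its last exon, with percentiles of 14.3, 20.6, 17.3 and 16.2. The last of these held the RefSeq start of the next gene, CTDSP1, at 218396351. UNC13A, which primes synaptic vesicles, had 4 coding or 3′ untranslated elements, none overlapped by qPRO-seq 250k. The other hosts with 4 elements in qPRO-seq 1M were AC103718.1, ZFHX4 and ZNF706.

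Gene families held small numbers of elements. The shares of their genes with an element lay on both sides of those of all protein-coding genes (2.37%, 4.60% and 1.34%). Zinc finger genes, which mostly code for their fingers in a large last exon, held elements in 6, 13 and 3 of 514 genes (1.17%, 2.53% and 0.584%), below the shares of all protein-coding genes in each list. The 3 in qPRO-seq 250k were ZNF335, ZNF385A and ZNF862. Solute carriers held elements in 16, 26 and 9 of 374 genes (4.28%, 6.95% and 2.41%), above those shares. HOX genes held elements in 2, 3 and 2 of 39 genes (5.13%, 7.69% and 5.13%), also above the shares of all protein-coding genes. These were HOXB4 in each list, HOXB2 in PRO-seq 1M, HOXB3 in both qPRO-seq lists and HOXC10 in qPRO-seq 1M. Of 83 histone genes, 1.20%, 4.82% and 1.20% held an element. H2AFZ did in both 1M lists, HIST1H1C in both qPRO-seq lists and HIST1H2BC and HIST3H2A in qPRO-seq 1M. Of 80 cytosolic ribosomal protein genes, nearly all with a start peak (73, 73 and 71), 1.25%, 2.5% and 1.25% held an element. RPL3L did in each list and RPS29 in qPRO-seq 1M. Of 45 collagen genes, COL15A1, COL19A1, COL4A2, COL6A1 and COL9A2 held an element in qPRO-seq 1M (11.1%) and none did in the other lists. Of 65 protocadherins, PCDHGA1 held an element in qPRO-seq 1M (1.54%), and of 40 kinesins, KIF25 did in both qPRO-seq lists (2.5% in each). The members of these small families were named after their values were seen. The families hold too few elements for the lists to be compared or for their shares to carry much precision.

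Long noncoding hosts more often had a peak at their start than the long noncoding genes of exonic windows, which were not weighted by distance here. Of the elements in protein-coding genes, 64.0%, 67.3% and 54.1% had a peak at a start of the host in the same list, against 58.4%, 60.2% and 49.0% of windows in such genes. In qPRO-seq 250k the interval for protein-coding hosts (48.4 to 59.7) held the window value. Of the elements in long noncoding genes, 54.6%, 55.5% and 46.2% did, against 21.2%, 24.5% and 16.8% of windows. The gap between elements and windows was wider in long noncoding hosts than in protein-coding hosts in each list; that difference was not tested. A peak counts for the host here only when it lies within 500 bp of a start, so none of the elements counted for itself.

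The exonic bases of the elements were richer in CpG than those of exonic windows. The composition was read from 100 exonic bases centred on the overlap with the chosen exon, which 606, 1224 and 339 elements and 260007 windows had. The median GC content was 58% in PRO-seq 1M, 53% in qPRO-seq 1M and 57% in qPRO-seq 250k, against 46% in windows. The median ratio of observed to expected CpG was 0.580, 0.428 and 0.531, against 0.248. Stretches with a ratio of at least 0.6 and at least 55% GC, called CpG-rich here after the usual limits for CpG islands, made up 38.4% (34.7 to 42.4), 22.7% (20.5 to 25.1) and 36.3% (31.3 to 41.5), against 5.88% of windows. The 100 bases around 35114 RefSeq gene starts had 46.3%. The exonic elements thus lay between ordinary exon sequence and gene starts in this measure, in each list.

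The higher share of CpG-rich stretches was seen in each of the 4 compartments and 4 distance classes of each list. Over coding bases, CpG-rich stretches made up 63.6%, 47.9% and 59.6% of elements against 12.3% of coding windows. Over 3′ untranslated bases they made up 29.7%, 13.3% and 25.5% against 1.88%. Over noncoding transcripts they made up 22.6%, 13.5% and 23.9% against 2.71%, and over 5′ untranslated bases 36.4%, 24.7% and 40.0% against 5.84%. Of first-exon elements, 50.8% (n = 61), 32.3% (n = 96) and 77.3% (n = 22) were CpG-rich against 8.95% of windows. The share showed no steady change with distance: 42.6%, 24.9% and 42.0% up to 1000 bp from a start (windows 8.97%) and 31.0%, 25.2% and 40.6% beyond 10000 bp (windows 3.90%).

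**Figure D4:**
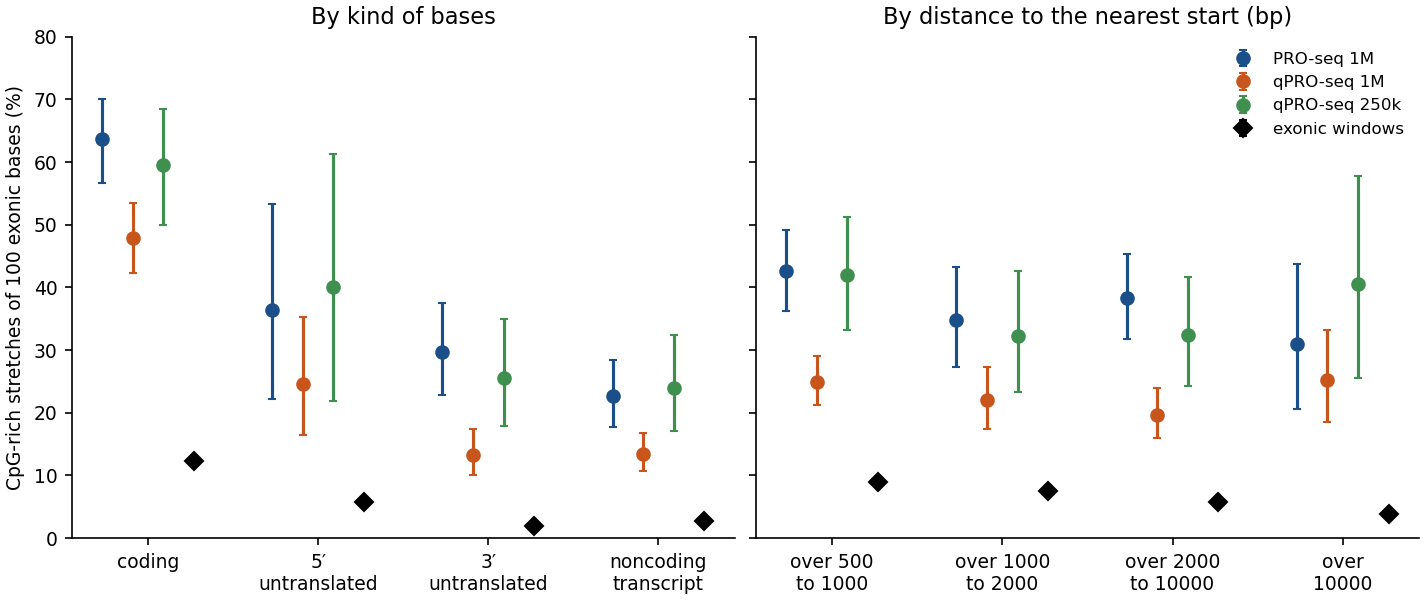
Share (%) of stretches of 100 exonic bases that were CpG-rich, in the elements of each list and in exonic windows (black diamonds), by the kind of bases (left) and by distance to the nearest start (right), with 95% Wilson intervals for counting error. Elements lie above windows in every class, from 13.3% against 1.88% over 3′ untranslated bases in qPRO-seq 1M to 63.6% against 12.3% over coding bases in PRO-seq 1M.

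The lists differed in this measure, and so did elements shared between lists and elements of 1 list. The qPRO-seq 1M share of 22.7% was below those of the other lists, with intervals that did not meet. Of the qPRO-seq 1M elements overlapped by both other lists, 36.0% (n = 297) were CpG-rich, and of those overlapped by neither, 13.6% (n = 583). In qPRO-seq 250k the values were 44.3% (n = 230) and 14.0% (n = 43), and in PRO-seq 1M 41.9% (n = 277) and 35.8% (n = 81). Taken from the other side, qPRO-seq 1M elements with a CpG-rich stretch were overlapped by PRO-seq 1M in 66.2% (60.4 to 71.5) against 41.3% (38.2 to 44.5) of the rest, while PRO-seq 1M elements of either kind were overlapped by qPRO-seq 1M alike (85.0% and 85.0%). CpG-rich elements also ranked higher by score (medians of 40.5, 46.9 and 31.7 against 27.2, 34.1 and 26.2). The part of score in the difference in overlap was not tested.

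Motifs were searched on both strands of the same 100 bases. The GC box GGGCGG was found in 14.4% (11.8 to 17.4), 8.91% (7.44 to 10.6) and 16.5% (12.9 to 20.8) of elements, against 2.64% of windows and 25.1% of RefSeq starts. The CACCC box CCACCC was found in 14.0%, 11.1% and 12.4%, against 7.0% and 12.1%. The ETS motif CCGGAAG was found in 2.31%, 2.12% and 1.18%, against 0.698% and 5.59%. These motifs hold mostly G and C, so that they move with the GC content given before, and the part of GC content was not tested.

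The GATA motif AGATAA was found in 5.28% (3.77 to 7.36), 7.43% (6.09 to 9.04) and 6.19% (4.09 to 9.28) of elements, against 5.42% of windows and 2.99% of RefSeq starts. The qPRO-seq 1M interval alone lay above the windows. Within compartments the GATA shares were 1.52%, 2.62% and 1.92% over coding bases, against 3.90% of coding windows. Over noncoding transcripts they were 8.70%, 8.53% and 10.3%, against 5.96%. Intervals by compartment are not given here, so these differences were not set against counting error. The AP-1 motif TGANTCA was found in 3.47%, 5.39% and 2.95% against 2.80%, and the qPRO-seq 1M interval (4.26 to 6.80) again lay above the windows. The TATA box TATAAA was less frequent in elements (2.64%, 3.1% and 3.24%) than in windows (7.06%). TATAAA holds only A and T, and AGATAA mostly so. Both thus move with GC content too, and its part was not tested. CCAAT was found in 9.90%, 12.7% and 12.4% against 13.9%, and the PRO-seq 1M interval (7.77 to 12.5) lay below the windows. The TAL1 E-box CAGATG (8.09%, 8.25% and 7.96% against 8.35%) was near the windows in each list. No motif searched here contains another; CCACCC and GGGCGG can share G or C letters where they adjoin.

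Between protocols at equal input, most PRO-seq 1M elements were met by a qPRO-seq 1M peak: 638 of 762 (83.7%, 80.9 to 86.2), against 90.6% of all PRO-seq 1M peaks. Conversely, 730 of 1577 qPRO-seq 1M elements (46.3%, 43.8 to 48.8) were met by a PRO-seq 1M peak, against 63.3% of all peaks of that list. Between inputs within the quick protocol, 457 qPRO-seq 1M elements (29%, 26.8 to 31.3) were met by a qPRO-seq 250k peak, against 44.1% of all peaks. Of the qPRO-seq 250k elements, 356 of 417 (85.4%, 81.7 to 88.4) were met by a qPRO-seq 1M peak, against 96.6% of all peaks. A peak of PRO-seq 1M met 300 of them (71.9%, 67.4 to 76.0), against 91.2% of all peaks. Of the PRO-seq 1M elements, 345 (45.3%, 41.8 to 48.8) were met by a qPRO-seq 250k peak, against 60.2%. In each of the 6 pairings the exonic share was below the share of all peaks, which mostly lie near starts. List length sets the ceiling of these shares, and each list stands for a single pair of libraries. With each list reduced to its 15562 highest-scored peaks, the qPRO-seq 1M elements were met by qPRO-seq 250k in 59.5% (74.9% of all peaks), and by PRO-seq 1M in 58.1% (77.9%). The qPRO-seq 250k elements were then met by qPRO-seq 1M in 56.4% (77.0%), and by PRO-seq 1M in 53.0% (79.9%). The PRO-seq 1M elements were met by qPRO-seq 1M in 70.3% (78.3%), and by qPRO-seq 250k in 67.6% (77.8%). The exonic share stayed below that of all peaks in each pairing at equal length.

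Exonic elements were therefore also set beside other distal peaks of like score. Overlap was higher at higher score: of PRO-seq 1M elements in the lowest score decile 63.2% were met by qPRO-seq 1M, and of those in the 3 highest deciles 100% (41, 27 and 24 elements). Averaged within score deciles, exonic elements of qPRO-seq 1M were met more often than intronic peaks, by 7.27 percentage points (4.94 to 9.62) by PRO-seq 1M and by 7.25 points (5.25 to 9.45) by qPRO-seq 250k. Against intergenic peaks the differences were 4.45 and 5.54 points. The last 2 differences did not hold when distance to a start was added to the score: they were then -0.964 and 0.795 points.

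In the shorter lists the direction depended on the pairing. Exonic elements of qPRO-seq 250k were met less often than intronic peaks of like score, by -5.66 points (-10.5 to -1.59) by PRO-seq 1M and by -7.75 points (-12.0 to -4.70) by qPRO-seq 1M, with -7.38 and -7.62 points against intergenic peaks. For PRO-seq 1M elements met by qPRO-seq 1M the differences were -3.07 points (-6.15 to -0.636) against intronic and -3.15 points against intergenic peaks, and for those met by qPRO-seq 250k 3.53 points (0.144 to 6.98) and 2.95 points (-0.429 to 6.36). Without adjustment for score, elements over 3′ untranslated bases were met least often in qPRO-seq 250k. By PRO-seq 1M, 60 of 109 were met (55%, 45.7 to 64.1), against 106 of 136 over coding bases (77.9%, 70.3 to 84.1) and 115 of 144 over noncoding transcripts (79.9%, 72.6 to 85.6). By qPRO-seq 1M the shares were closer, at 78.9%, 85.3% and 89.6%. The part of score was not tested.

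**Figure D5:**
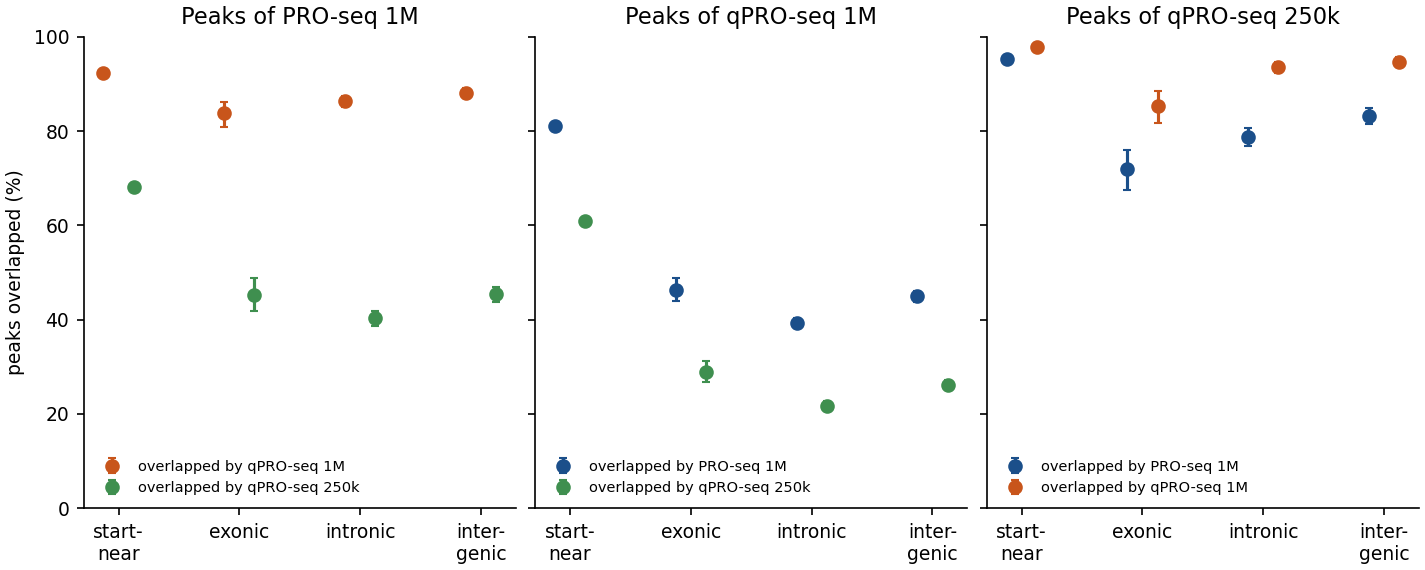
Share of peaks (%) of each list that a peak of each other list overlapped by at least 1 bp, for peaks near starts, exonic elements, distal intronic and distal intergenic peaks, with 95% Wilson intervals for counting error and no adjustment for score. Exonic elements lie above intronic peaks in the qPRO-seq 1M panel (46.3% against 39.3% by PRO-seq 1M) and below them in the qPRO-seq 250k panel (71.9% against 78.8%).

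A counterpart was not always itself an exonic element. Of the PRO-seq 1M elements, 74.3% met an exonic element of qPRO-seq 1M and 7.35% met only a peak near a start there. Of the qPRO-seq 1M elements, 37.3% met an exonic element of PRO-seq 1M, 5.33% only a peak near a start, and 53.7% met no peak. Elements with a neighbour 20 bp away were met more often than those without (65.9% against 36.9% for qPRO-seq 1M elements met by PRO-seq 1M), and the share of such elements was 32.4% in that list. In the joined regions, 436 of 1766 (24.7%) had a peak of all 3 lists, against 34.5% of all 34308 regions. A peak of qPRO-seq 1M alone was found in 761 (43.1%, against 37.0% of all regions), of both 1M lists in 326 (18.5% against 18.3%) and of PRO-seq 1M alone in 112 (6.34% against 6.14%). Both qPRO-seq lists shared 73 (4.13% against 2.54%), qPRO-seq 250k alone held 48 (2.72% against 1.04%), and PRO-seq 1M shared 10 with it (0.566% against 0.379%). The shares for both 1M lists and for PRO-seq 1M alone were near those of all regions.

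Among elements that no other list overlapped, the highest ranks were high in qPRO-seq 1M and moderate in the other lists. In PRO-seq 1M they were in MAP10, a microtubule-associated protein gene (percentile 65.0), C3, the central complement component (59.2), and SLAIN2, a microtubule plus-end factor (58.7). The MAP10 element lay 20 bp from a qPRO-seq 1M peak, and the SLAIN2 element lay 130 bp from a qPRO-seq 1M peak and 280 bp from a qPRO-seq 250k peak. By RefSeq, the MAP10 element lay 95 bp and the SLAIN2 element 332 bp from the start of its own gene. In qPRO-seq 1M they were in PDLIM3, an actinin-binding muscle protein gene (94.3), AC025263.3 (90.3) and AC092933.1 (89.8), an unprocessed pseudogene whose reads may be shared with copies. The PDLIM3 element, over exon 7 of 8 at chr4:185504301-185504820, had its nearest PRO-seq 1M peak 32790 bp away. In qPRO-seq 250k they were in PDE12, a mitochondrial deadenylase gene (46.2), VMP1, an autophagy gene (41.2), and TRNAU1AP, which binds the selenocysteine tRNA (37.1).

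The elements nearest the 500 bp limit included those in MTND2P28 (501 bp from a start in both 1M lists), a nuclear copy of a mitochondrial gene, so that its reads may be shared with mitochondrial RNA. Next to it came SPAG5-AS1 (502 bp) and MCIDAS (502 bp) in PRO-seq 1M and TRMT1L and AARS (501 bp each) in qPRO-seq 1M. At the same distances lay BRWD1 and ZNF706 (501 bp) in qPRO-seq 1M and MTND4P12 (502 bp) in PRO-seq 1M. In qPRO-seq 250k they were AC020656.2, SPAG5-AS1 and LINC00271, each 502 bp from a start, with percentiles of 98.9, 27.3 and 18.0. The exonic peaks just inside the limit, and so left out, included those in AC092919.2 (499 bp), AL157371.2 (498 bp) and AL357078.1 (497 bp) in PRO-seq 1M, U2AF2 (500 bp), RITA1 (499 bp) and MINDY2 (499 bp) in qPRO-seq 1M and TXNDC9 (500 bp), AL512408.1 (496 bp) and TMEM129 (496 bp) in qPRO-seq 250k. Their percentiles ran from 1.65 for TMEM129 to 96.7 for AL357078.1. Those of the elements just outside ran from 3.55 for AARS to 98.9 for AC020656.2, so the named peaks ranged widely on both sides. Over all exonic peaks within 50 bp of the limit, the PRO-seq 1M medians were 34.7 outside and 33.6 inside. They were 35.6 outside and 44.8 inside in qPRO-seq 1M, and 27.3 outside and 23.6 inside in qPRO-seq 250k.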

How the data were processed

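Run-on sequencing of 6 K562 libraries in 3 groups gave 3 dREG peak lists, which the authors deposited with a score and a p-value per peak; the score has no fixed unit and was used only as a rank within its own list, and whether the p-value was adjusted is not stated. The submitters' processing notes name fastp 0.20.0, Bowtie2 2.3.5.1, UMI-tools, deepTools 3.1.3 and the build hg38 (GRCh38), without role or order; the version of dREG and the pooling of replicates are not given in the sources used here. Read counts were not analysed here, so depth is unknown.

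Peaks were set against GENCODE release 29 (GRCh38) with Python 3.11.15, numpy 2.4.6, pandas 2.3.3 and scipy 1.17.1, and figures were drawn with matplotlib 3.10.9. Group and replicate came from sample titles. Exonic windows of 440 bp served as the scale. Sequences were read from the GENCODE transcripts (76735 transcripts, each with its annotated length); a genome was not used here, so composition and motifs come from 100 exonic bases, chosen after the data were seen, in place of the intended window around the peak centre. Differences in overlap were averaged within 10 score groups of equal size. The calculations were tested on simulated data. Host genes were named by rule: the 3 top-scored elements per list in first, internal and last exons, the 10 regions with elements in all 3 lists and the highest mean percentile, the 3 top-scored elements per list without overlap, hosts with 4 or more elements, those nearest the 500 bp limit and erythroid hosts. The elements, gene lists and measures were chosen with earlier results of these data known. Some genes that these rules name are not reported here.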

Additional observations from a re-analysis of the deposited data

How the results depend on the processing

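No paired analysis was possible because each group has 1 peak list for both of its replicates, and for the same reason no replicate was left out. Motif windows of 300 and 100 bp around the peak centre were not run, since they need a genome, which was not used here. Values below begin with the published protocol and end with the 250k list unless a list is named, and give the results that moved by more than their counting interval; the cause was not tested except where a setting by construction keeps fewer peaks.

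With the peak centre required in an exon, 488 and 970 elements remained in the 1M lists; internal exons held 18.2%, 18.0% and 17.3%, last exons 53.7%, 54.2% and 58.3%, single exons 17.8% and 19.4% (1M lists), coding bases 29.5% and 21.8%, 3′ untranslated 25% and 29.6% and noncoding 40.6% and 42.9% (1M lists), and 5′ untranslated 4.92%, 5.77% and 4.59%. At more than 1000 bp from every start there were 483, 1002 and 277 elements, with first exons at 3.11%, 3.29% and 2.53%, internal at 36.4% and 37.0% (1M lists), last at 53.8%, 51.8% and 57.4% and single at 6.63%, 7.88% and 8.66%; windows under that rule had 0.861% first, 50.8% internal, 44.9% last and 3.40% single exons, so that each direction was as before. With basic transcripts only, internal exons held 42.0%, 42.2% and 40.1%, last exons 37.4%, 37.4% and 40.7%, single exons 11.7% (qPRO-seq 1M), coding bases 48.5%, 42.3% and 45.3%, noncoding 25.5%, 28.9% and 25.4%, 3′ untranslated 20.8% and 21.6% (qPRO-seq lists) and protein-coding genes 74.5% (PRO-seq 1M); windows had 56.9% internal, 37.4% last, 53.7% coding and 20.5% noncoding. With the exon chosen by largest overlap alone, coding bases held 31.4%, 25.7% and 27.1% and noncoding 43.3%, 45.1% and 42.0% (windows 37.7% and 34.5%). With at least 50 exonic bp, internal exons held 30.9% in qPRO-seq 1M. A score at or above the list median left 234, 570 and 115 elements, lists cut to the shortest length left 343 and 444 in the 1M lists, and p of 0.01 or less left 275 in qPRO-seq 250k.

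Overlap shares follow in a set order: the PRO-seq 1M elements met by the quick 1M list and then by the 250k list, the qPRO-seq 1M elements met by the published-protocol list and then by the 250k list, and the 250k elements met by the published-protocol list and then by the quick 1M list. They were 72.7%, 36.6%, 36.4%, 21.6%, 62.8% and 73.4% when 50% of both peaks had to be shared, 67.8%, 31.5%, 33.7%, 20.8%, 56.1% and 70.5% with centres within 100 bp, and 70.3%, 67.6%, 58.1%, 59.5%, 53.0% and 56.4% with lists of equal length. For elements with no other peak within 20 bp, a setting chosen after the data were seen, the first 4 were 80.6%, 38.5%, 36.9% and 20.3%. With p of 0.01 or less, the second and the fourth were 39.1% and 25.8%.

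Differences from distal peaks of like score moved in qPRO-seq 1M, and are given for its overlap with the published-protocol list and then with the 250k list. Against intronic peaks they were 4.89 and 5.01 points with 50% of both peaks shared and 4.37 and 3.20 points without peaks that have a neighbour within 20 bp, and 4.52 points by PRO-seq 1M with distance classes added. Against intergenic peaks they were 1.39 and 2.80 points without adjustment for score and 0.215 and 1.89 points within width deciles. They were -0.964 (reversed) and 0.795 points with distance classes added, and 2.84 points by qPRO-seq 250k without peaks that have a neighbour. Distance classes and the neighbour rule were added after the data were seen, as was a stretch of 60 exonic bases, under which 7.17% of windows were CpG-rich. A shorter stretch holds fewer motifs by construction: 12 of 16 motif and composition values moved. The GC box was then in 9.20%, 5.27% and 9.84% of elements and 1.52% of windows, the CACCC box in 7.86%, 6.42% and 6.12% against 3.99%, and GATA in 3.71%, 4.47% and 4.26% against 3.14%. Depth limits the reading of list length and of missing overlap, and it is unknown.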

Other observations

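On the other sequences that the annotation names, the lists, in the order used before, held 1, 2 and 5 peaks. Of these, 0 were exonic elements away from starts. Any peaks on sequences that the annotation does not name were not counted. The elements near RefSeq starts were met by both other lists in 24 of 50 cases in PRO-seq 1M (48.0%), 27 of 62 in qPRO-seq 1M (43.5%) and 20 of 24 in qPRO-seq 250k (83.3%), against 43.7%, 23.5% and 68.8% of all exonic elements and 59.3%, 40.7% and 90.1% of all peaks. Among the elements holding such a start were those in FOXD2, a forkhead factor gene, in each list, in KDM2B and PIK3R3 in PRO-seq 1M, and in WDR12 and MRPL41 in qPRO-seq 1M, all genes chosen after their values were seen. CpG-rich stretches were found in 34.5%, 19.4% and 32.7% of elements whose host had a start peak in the same list, and in 44.2%, 28.5% and 39.8% of those whose host had none.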
